A study of Ovis aries with 6 samples.

Results

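The keratin gene family was examined in cultured sheep (Ovis aries) corneal epithelial cells and skin epidermal stem cells. A probe was taken as a keratin probe when the array annotation gave it a keratin gene symbol or described it as a type I or type II keratin, while keratin-associated proteins and KRTDAP were left out. The rule found 22 probes for 17 genes among 15008 gene probes. Of these, 14 probes for 11 genes were type I keratins and 8 probes for 6 genes were type II keratins. Total RNA of 3 corneal samples and 3 epidermal samples, each kind described as cell lines by the submitters and labelled only by tissue (cornea or skin), was hybridised to single-colour Agilent arrays, 1 array per sample. No treatment, genotype or breed was given for either group. Whether the lines of a group came from separate animals was not stated, so p-values cover the scatter of these arrays, part of which may be technical.

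Keratins are the intermediate filament proteins of epithelial cells, and each filament is built from type I keratins paired with type II keratins. KRT5 and KRT14 form the pair of basal keratinocytes, KRT15 marks basal and follicle stem cells, and KRT8 and KRT19 are typical of simple epithelia. In the wool follicle, KRT25 and KRT27 belong to the inner root sheath, KRT75 to the companion layer, and the hard keratins such as KRT31, KRT33A, KRT33B, KRT34, KRT35, KRT83 and KRT85 to the cortex and cuticle of the fibre.

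The probes are 60 bases long, and the stretches shown are those of the keratins that the results turn on. They are read from the deposited array files, 5′ to 3′, whole for KRT5 and KRT14 and as 30 bases for the others. Where a gene has several probes, each is named by the start position that the array annotation gives for it. Capitals mark the 13 bases that the KRT5 and KRT83 probes share, which was the longest such run between probes of different keratin genes, or a polyadenylation signal (AATAAA).
KRT5: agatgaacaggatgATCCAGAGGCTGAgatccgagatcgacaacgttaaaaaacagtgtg
KRT83: ATCCAGAGGCTGAcagctgaggttgagaat
KRT14: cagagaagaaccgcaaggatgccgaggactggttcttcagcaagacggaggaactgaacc
KRT15: tcttccagaaagagagaatctaacacccca
KRT8: actgcctggggttgccccttttgcccatga
KRT27: aaagctaggttcctaaacaagagctctcat
K38 probe at 1528: agagcttctctactgatgggctttctggtc
K38 probe at 1637: ttttaatttgatAATAAActtcatttctgc
KRT2.11 probe at 1765: tttgctgtcttgaggattcatgccttcttc
KRT2.11 probe at 2053: ctctttgtttccAATAAActaattgtggct
KRT35 probe at 1697: tattgtaaaaacAATAAAgcacgtttgctt
KRT35 probe at 1698: tattgtaaaaacAATAAAgcacgtttgctt

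The polyadenylation signal, searched on the printed strand, occurred in 7 of the 22 keratin probes and in 5.63% of all gene probes. The 2 KRT35 probes differ by a shift of 1 base and share 59 of their 60 bases. Of the other keratin pairs, KRT85 and the KRT2.11 probe at 1765 shared 11 bases. The KRT14 probe carries a name that the sheep RefSeq table (ARS-UI_Ramb_v3.0) gives both as the symbol of one gene and as an older name of KRT17, so its signal may come from either. The annotation of the KRT33A probe lists transcripts of KRT33A and of KRT33B.

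Levels are the log2 processed signal minus the 75th percentile of the array, and a probe counted as measured on an array when the scanner software called it well above background. Of the gene spots, 72.9% to 75.9% were well above background on the corneal arrays and 77.5% to 81.6% on the epidermal arrays. The lowest level called well above background lay between −6.57 and −6.12 on the corneal arrays and between −7.14 and −6.65 on the epidermal arrays. The corneal arrays thus measured fewer probes and had the higher limit, which touches each dim keratin below. All 6 arrays lay on 1 slide, with corneal arrays in row 2 and epidermal arrays in row 1, so the effects of slide row and of cell type cannot be told apart. In RNA from whole cultures, fewer cells that make a keratin and less RNA per cell cannot be told apart either.

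Most keratin probes were dim in both kinds of cell. On the corneal arrays 4, 3 and 3 keratin probes were well above background, against 10, 6 and 9 on the epidermal arrays. Over all arrays, 10 of the 22 probes (45.5%) were well above background at least once, against 85.5% of all gene probes. Another 12 keratin probes (54.5%) were so on 0 arrays, against 14.5% of all probes. All 6 arrays measured 3 keratin probes, those of KRT8, K38 at 1528 and KRT2.11 at 1765, which is 13.6% of the family against 71.5% of all probes.

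Detection was uneven between the groups. Of the keratin probes, 4 were well above background on a corneal array and 10 on an epidermal array. Thus 6 probes were measured on epidermal arrays alone (27.3%, against 7.98% of all probes) and 0 on corneal arrays alone (against 1.21% of all probes). Probes measured on all 6 arrays, 71.5% of all probes against 13.6% of keratin probes, cannot show such a pattern. These shares of all probes are therefore not those of probes as dim as the keratins. Of all 15008 gene probes, 10736 were measured on all 6 arrays and 1198 on epidermal arrays alone. Whether the pattern is particular to keratins was not tested. The stricter pattern, all 3 epidermal arrays and 0 corneal arrays, held for KRT27 and the K38 probe at 1637, 2 of 22 probes, and 2.12% of all gene probes showed it. The software's weaker flag asks for a signal positive and significant against the local background. By that flag, 20 of the 22 keratin probes (90.9%) were detected on at least 1 array, against 96.9% of all gene probes.

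**Figure D1:**
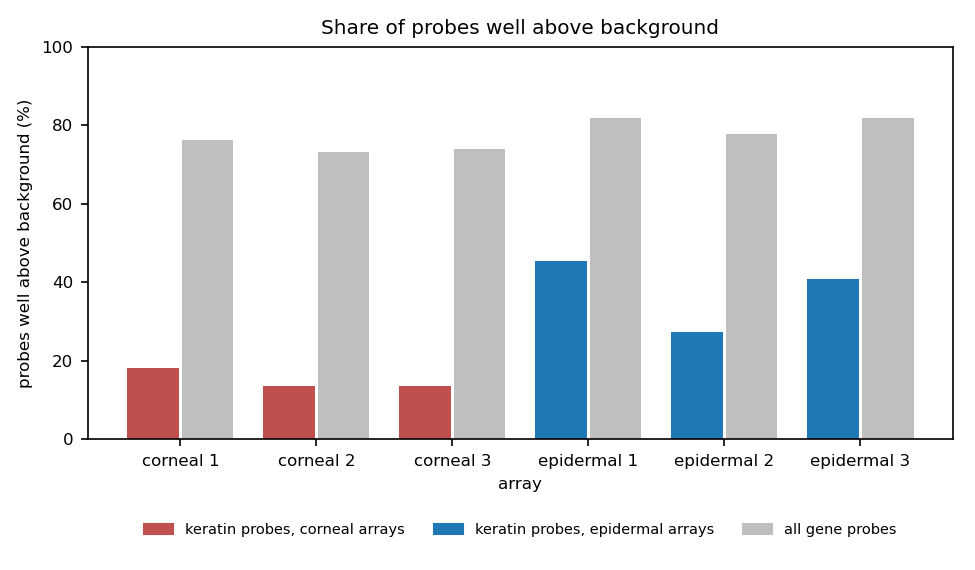
Share of probes well above background on each array, in percent, for the 22 keratin probes (coloured bars, corneal red, epidermal blue) and for all gene probes (grey bars). Keratin probes reached 13.6% to 18.2% on corneal arrays and 27.3% to 45.5% on epidermal arrays, below all probes on every array.

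Of the 3 basal keratins, 0 were well above background on all 6 arrays. KRT5 had levels of −6.66, −8.08 and −8.12 on the corneal arrays, against −5.88, −6.44 and −6.13 on the epidermal arrays. Detection by the software was limited to 2 epidermal arrays. The groups did not overlap, and a bound from the detection limits put KRT5 1.12-fold lower in corneal cells. The bound has no test, because the probe was measured on too few arrays to enter the fit. This and each bound below takes observed means without their scatter, so it is no confidence limit. The limit used is the lowest level called on an array, and some probes above it were not called. KRT14 on corneal replicate 1, for instance, lay at −6.35 against a limit of −6.57. A bound is therefore no strict minimum.

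KRT14, its partner in basal filaments, had levels of −6.35, −6.33 and −7.25 on the corneal arrays, against −6.75, −6.37 and −6.69 on the epidermal arrays. Here the groups overlapped, with means of −6.64 ± 0.53 in corneal cells and −6.60 ± 0.20 in epidermal cells (SD, n = 3 each). It was detected on 2 epidermal arrays and on 0 of the corneal ones, although the means differed by less than the SD of either group. The detection limit was the higher on the corneal arrays.

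KRT15 entered the fit, being well above background on 1 corneal array and 3 epidermal arrays. Its levels were −6.50, −6.76 and −6.35 on the corneal arrays, against −6.41, −6.21 and −6.57 on the epidermal arrays. The groups overlapped, and the change of −0.14 ± 0.13 on the log2 scale (SE, n = 3 each) did not pass limma's test (adjusted p = 0.40). The 95% interval of the change ran from −0.48 to 0.19. With quantile normalization the change was 0.15, so KRT15 has no direction that holds under every scaling.

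Of the simple epithelial keratins, KRT8 was well above background on all 6 arrays. Its levels were −1.87, −1.61 and −1.69 on the corneal arrays, against −1.89, −1.65 and −1.97 on the epidermal arrays. The groups overlapped, and the change of 0.11 ± 0.11 (SE, n = 3 each) did not pass limma's test (adjusted p = 0.397). Its 95% interval ran from −0.15 to 0.38, which as a fold is 0.90 to 1.30. Without scaling between arrays the change was −0.05, so its direction was not fixed by the data.

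KRT19 was well above background on 0 arrays. It had levels of −8.83, −8.47 and −7.71 on the corneal arrays, against −9.42, −8.94 and −9.41 on the epidermal arrays. The groups did not overlap, but all 3 epidermal values and 1 corneal value were replacement values that the software sets for spots too dim to measure.

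Across the 6 arrays, the named genes whose levels most resembled those of KRT8 were SLC16A1, a monocarboxylate transporter (Pearson's r = 0.95), GRIA1, a glutamate receptor subunit (r = 0.89), PAOX, a polyamine oxidase (r = 0.84), ADCYAP1, a neuropeptide gene (r = 0.79), and ADRB3, an adrenergic receptor (r = 0.77). These are descriptions over 6 arrays that share 1 slide. Their own fitted changes ran from 0.03 for ADCYAP1 to 0.46 for GRIA1.

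Among the follicle sheath keratins, KRT27 stood out by detection. Its levels were −8.12, −6.95 and −6.68 on the corneal arrays, against −5.80, −5.99 and −6.46 on the epidermal arrays. It was well above background on all 3 epidermal arrays and on 0 corneal arrays, and the groups did not overlap. The bound from the detection limits and the observed epidermal mean put KRT27 1.18-fold lower in corneal cells. That bound leaves out scatter, and the 95% interval of the fitted change reaches a corneal level 0.90 times the epidermal level.

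The fitted change of KRT27 was −1.17 ± 0.41 (SE, n = 3 each), just short of the threshold of 0.05 in limma's test (adjusted p = 0.052, 95% interval −2.19 to −0.15). Over 19 alternatives its adjusted p ranged from 0.020 to 0.91, with 5 below the threshold. It passed without corneal replicate 1 (change −0.73, adjusted p = 0.045) and without corneal replicate 3 (change −1.45, adjusted p = 0.035). With normexp as the background correction and without spots on very bright local background, the change was 0.01. Normexp here added an offset of 50, above the KRT27 intensities of 3.25 to 19.8. Such an offset draws the log2 changes of dim probes towards 0, so this value does not show that a difference was absent.

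Both KRT25 probes and the KRT75 probe were well above background on 0 arrays. For the KRT25 probe at 1510, 1 corneal array stood apart at −6.11, against −8.51 and −8.20 on the other corneal arrays and −8.24, −8.64 and −7.84 on the epidermal arrays. KRT75 had levels between −8.50 and −8.11 on the corneal arrays and between −9.03 and −7.42 on the epidermal arrays. The groups overlapped for both of these probes.

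**Figure D2:**
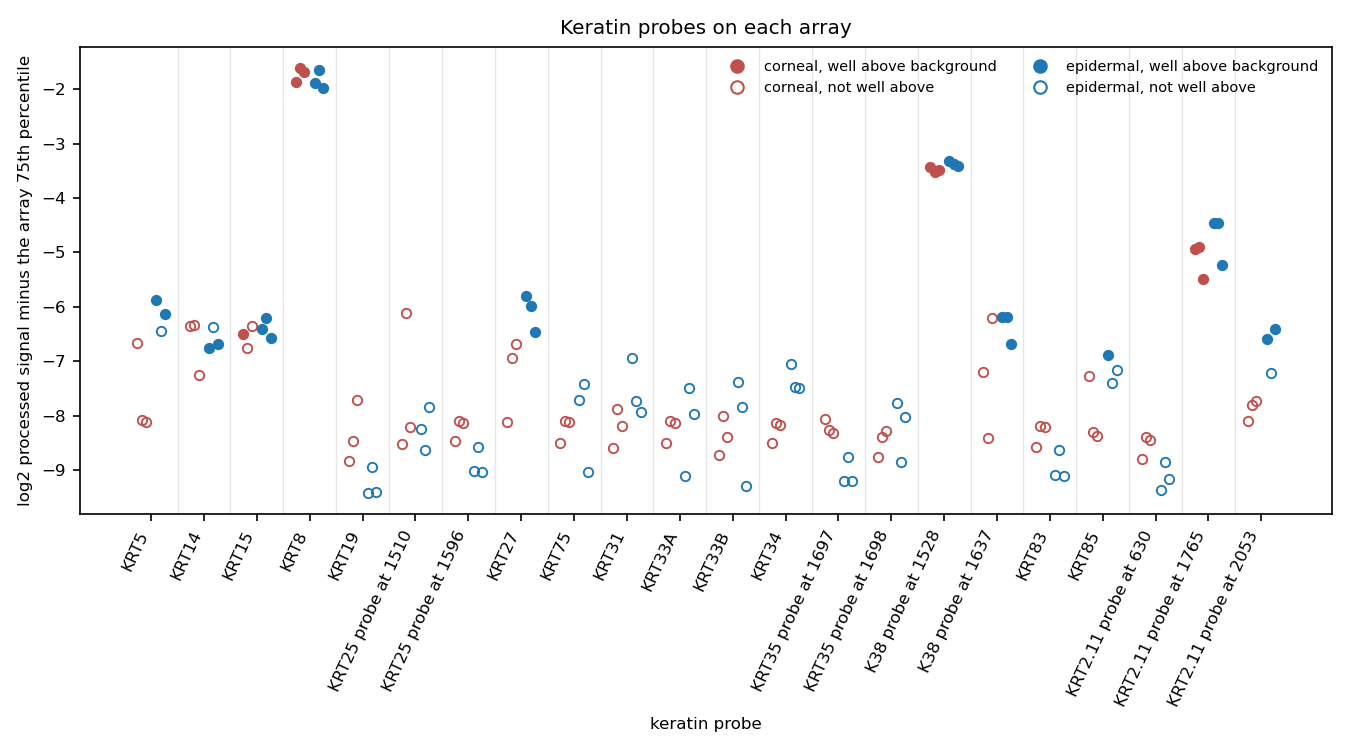
Level of each of the 22 keratin probes on each array (y axis, log2 processed signal minus the array's 75th percentile), corneal arrays in red to the left and epidermal arrays in blue to the right. Filled points are well above background. KRT8, K38 at 1528 and KRT2.11 at 1765 are filled on all 6 arrays, while 12 probes have open points alone.

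The wool keratins of cortex and cuticle made up 13 probes for 9 genes, of which 8 probes were well above background on 0 arrays. K38, named for keratin 38, a type I hair keratin in humans, had an SD of 0.04 in each group at its probe at 1528. That probe, well above background on all 6 arrays, had levels of −3.44, −3.52 and −3.48 on the corneal arrays, against −3.33, −3.38 and −3.42 on the epidermal arrays. The groups did not overlap, yet the change was small, −0.11 ± 0.04 (SE, n = 3 each), and did not pass limma's test (adjusted p = 0.063, 95% interval −0.20 to −0.01).

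The K38 probe at 1637 had levels of −7.19, −8.41 and −6.21 on the corneal arrays, against −6.18, −6.19 and −6.68 on the epidermal arrays. It was well above background on all 3 epidermal arrays and on 0 corneal arrays, while the probe at 1528 was so on all 6. The groups overlapped, and the change of −0.92 ± 0.56 (SE, n = 3 each) did not pass limma's test (adjusted p = 0.20). Without corneal replicate 3 the change was −1.45 and passed (adjusted p = 0.034), and without corneal replicate 2 it was −0.35 (adjusted p = 0.42). The 2 probes of this gene therefore differed in detection on the corneal arrays.

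KRT2.11, a sheep type II keratin, had 3 probes that also differed in detection. The probe at 1765 was well above background on all 6 arrays, with levels of −4.93, −4.89 and −5.48 on the corneal arrays, against −4.45, −4.45 and −5.22 on the epidermal arrays. Its groups overlapped, since replicate 3 was the lowest array in each, and the change of −0.39 ± 0.27 (SE, n = 3 each) did not pass limma's test (adjusted p = 0.259, 95% interval −1.07 to 0.28). It was −0.65 without epidermal replicate 3 (adjusted p = 0.051), −0.20 without corneal replicate 3 (adjusted p = 0.56) and −0.08 with slide column as a block (adjusted p = 0.82).

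The KRT2.11 probe at 2053 was detected in that sense on 2 epidermal arrays alone and stayed out of the fit. Its levels were −8.11, −7.81 and −7.74 on the corneal arrays, against −6.59, −7.21 and −6.40 on the epidermal arrays. The groups did not overlap, but the detection limit of the corneal arrays was above the epidermal mean of −6.74 ± 0.42 (SD, n = 3), so no fold can be bounded. The third probe, at 630, was well above background on 0 arrays.

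Of the remaining wool keratins, KRT85, a type II keratin of the fibre, was well above background on 1 epidermal array. It had levels of −7.28, −8.30 and −8.37 on the corneal arrays, against −6.89, −7.41 and −7.17 on the epidermal arrays, and the groups overlapped. KRT31, KRT33A, KRT33B, KRT34, both KRT35 probes and KRT83 were well above background on 0 arrays. KRT34 had levels between −8.50 and −8.14 on the corneal arrays, all replacement values, and between −7.50 and −7.05 on the epidermal arrays, none of them a replacement value and none well above background. KRT31, KRT33A and KRT33B had levels between −8.72 and −7.88 on the corneal arrays and between −9.30 and −6.95 on the epidermal arrays, and their groups overlapped.

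Across the family, 6 keratin probes of 5 genes entered the fit, which took in probes well above background on at least 3 arrays. Of these, 0 were called in limma's test at an adjusted p below 0.05, against 7025 of 11740 probes (59.8%), with 26.4% of all probes higher in corneal cells and 33.4% lower. By the unadjusted p at the same threshold, 2 of the 6 keratin probes passed, KRT27 and the K38 probe at 1528, both lower in corneal cells, against 64.2% of all probes. The median fitted change of the 6 was −0.27, against −0.05 over all probes tested. KRT27 and the K38 probe at 1637 entered the fit through epidermal arrays alone and had the lowest changes of the 6. This median and these directions therefore lean on the filter. Over the keratin probes outside the fit, the median difference of means was −0.12. Without scaling between arrays, 2 of the 6 were called (KRT27 and the K38 probe at 1528), the median over all probes was −0.22, and the calls over all probes were 1535 higher and 5295 lower in corneal cells, against 3101 higher and 3924 lower with scaling.

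These results do not show that keratin levels were alike. The 95% intervals of the KRT27, KRT2.11 and second K38 probes each span more than 1 log2 unit. For probes printed at 5 spots on the same array, the median SD between spots was 0.38 at levels below −5.5 and 0.08 at or above it. The levels of KRT8, of the K38 probe at 1528 and of the KRT2.11 probe at 1765 lie above that limit on all 6 arrays.

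**Figure D3:**
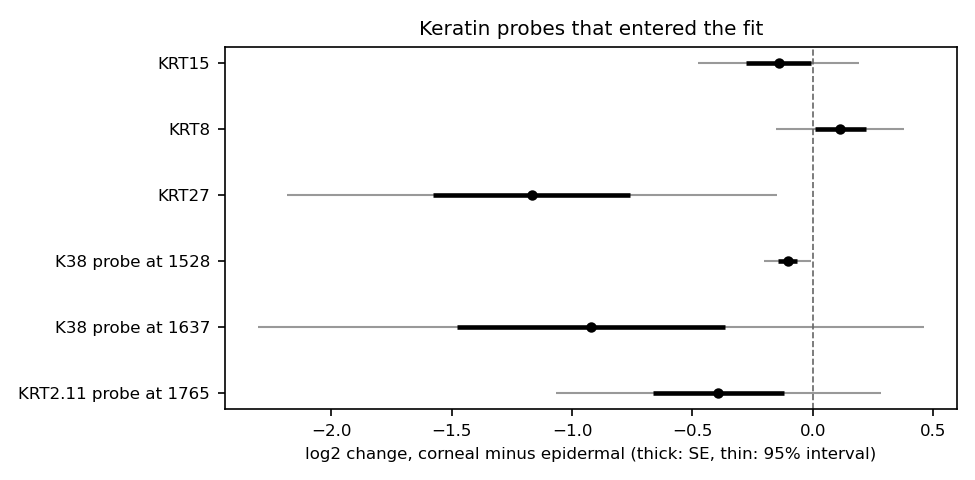
Fitted log2 change, corneal minus epidermal, of the 6 keratin probes that entered the fit, with the standard error as a thick line and the 95% interval as a thin line. The points run from −1.17 for KRT27 to 0.11 for KRT8, and 5 of 6 lie below 0. KRT27 and the K38 probe at 1637 entered the fit through epidermal arrays alone.

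Separation of the groups was also counted over all 22 probes. In 5 keratin probes every corneal value was below every epidermal value (KRT5, KRT27, KRT34, K38 at 1528 and KRT2.11 at 2053), against 32.2% of all gene probes. In another 5 every corneal value was above every epidermal value (KRT19, KRT25 at 1596, KRT35 at 1697, KRT83 and KRT2.11 at 630), against 28.8% of all gene probes. The other 12 overlapped.

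The 5 probes with higher corneal values were well above background on 0 arrays, and most of their values were replacement values. Over the 469 probes that carried replacement values on all 6 arrays, the corneal mean exceeded the epidermal mean by a median of 0.64 on the log2 scale (range 0.43 to 0.68). KRT83 differed by 0.62 and the KRT25 probe at 1596 by 0.64, both on replacement values throughout. The KRT2.11 probe at 630 differed by 0.58, the KRT35 probe at 1697 by 0.84 and KRT19 by 0.92, with 5, 5 and 4 replacement values of 6.

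The 2 KRT35 probes, alike in 59 bases, went apart at this level. The probe at 1697 had levels of −8.06, −8.27 and −8.31 on the corneal arrays, against −9.20, −8.76 and −9.21 on the epidermal arrays. Its neighbour at 1698 had levels of −8.76, −8.39 and −8.28 on the corneal arrays, against −7.76, −8.85 and −8.04 on the epidermal arrays. The differences of means were 0.84 and −0.26, on 5 and 3 replacement values.

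A fit over all 15008 probes with no filter called 7 of the 22 keratin probes, 4 higher and 3 lower in corneal cells. Over all probes that fit called 49.3%, with 23.5% higher and 25.8% lower. The 4 higher were the KRT25 probe at 1596, the KRT35 probe at 1697, KRT83 and the KRT2.11 probe at 630, each with 5 or 6 replacement values of 6. The 3 lower were KRT5 (−1.47, limma adjusted p = 0.044), KRT34 (−0.93, limma adjusted p = 0.0079) and the KRT2.11 probe at 2053 (−1.15, limma adjusted p = 0.014), each well above background on 0 corneal arrays.

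**Figure D4:**
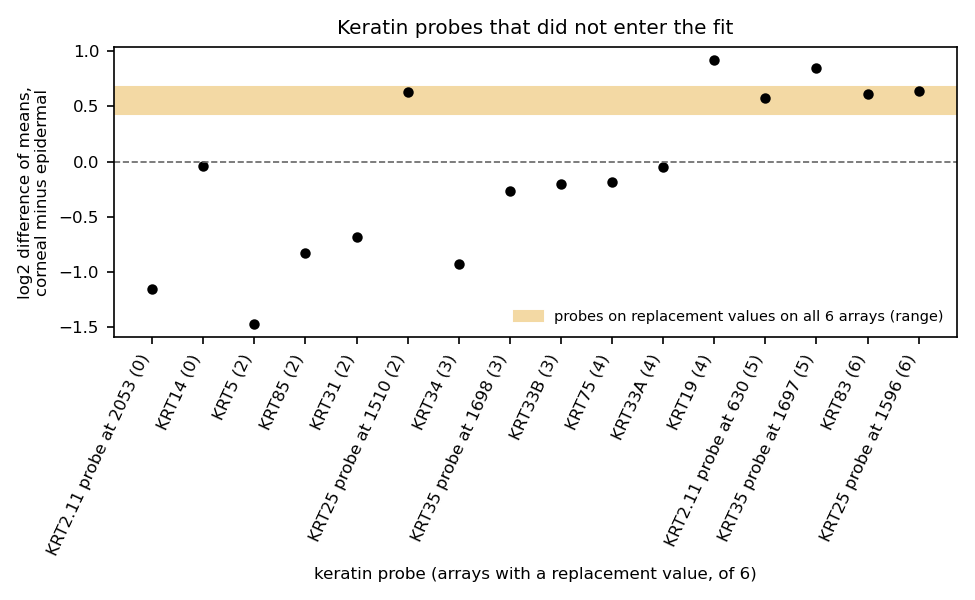
Difference of group means, corneal minus epidermal on the log2 scale, of the 16 keratin probes that did not enter the fit, ordered by how many of the 6 arrays held a replacement value (in brackets). The band spans 0.43 to 0.68, the range over the 469 probes on replacement values throughout, and both KRT25 probes, KRT83 and the KRT2.11 probe at 630 lie inside it.

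The genes that work with keratins were also read by list, beside the 59.8% of all probes called (26.4% higher and 33.4% lower in corneal cells). Names were found for 920 genes only, so a listed gene without a named probe may still be on the array. Keratin-associated proteins, which cross-link hard keratins in the wool fibre, and other follicle structure genes had probes for 10 of 33 genes, 7 of them well above background on 0 arrays. Of the 2 tested, KRTAP4.3 rose in corneal cells, with levels of 0.89, 0.91 and 0.90 on the corneal arrays, against 0.48, 0.44 and 0.48 on the epidermal arrays (change 0.43 ± 0.03, SE, limma adjusted p = 7.2e-05). A second KRTAP4.3 probe was well above background on 0 arrays. Its levels were −8.51, −8.13 and −8.18 on the corneal arrays, against −7.93, −7.11 and −7.12 on the epidermal arrays. It lay far below the first probe and in the other direction, so the rise holds for the first probe only. The other gene tested, UHSKP, an ultra-high-sulphur keratin protein by its name, was measured on epidermal arrays alone. By the bound, which leaves out scatter, it was 1.06-fold lower in corneal cells (fitted change −0.36 ± 0.11, SE, limma adjusted p = 0.033). That call was lost when any of corneal replicates 2 and 3 or epidermal replicates 2 and 3 was left out, with adjusted p between 0.054 and 0.098, and under quantile normalization (adjusted p = 0.37).

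Among 6 regulators of keratin genes with a probe, 2 rose, 1 fell and 1 of the 4 tested did not pass. The 1 that fell entered the fit through epidermal arrays alone, so its direction leans on the filter. HOXC13, a homeobox factor that drives hair keratin genes in mouse and human, fell in corneal cells. It had levels of −8.59, −7.19 and −7.12 on the corneal arrays, none well above background, against −5.37, −5.42 and −5.49 on the epidermal arrays. By the bound, which leaves out scatter, it was 1.85-fold lower in corneal cells (fitted change −2.21 ± 0.41, SE, limma adjusted p = 0.0051). Under normexp without spots on very bright local background the change was −0.21 (adjusted p = 0.030), with the offset of 50 that draws dim probes towards 0.

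TFAP2A, a factor known to bind keratin promoters, rose by 1.23 ± 0.07 (SE, limma adjusted p = 4.3e-05), and PAX6, a factor of the corneal epithelium, by 0.30 ± 0.07 (SE, limma adjusted p = 0.013). The PAX6 change was 0.13 without scaling (adjusted p = 0.24) and −0.26 under normexp, but 0.27 (adjusted p = 0.0038) under normexp without the spots on very bright local background. With slide column as a block it was 0.30 and did not pass (adjusted p = 0.14). TP63, the master factor of basal keratinocytes, was well above background on 0 arrays with either of its 2 probes.

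Genes of keratin filament anchors and their partners were mostly well above background, 5 of 6 on all arrays. All 6 were tested, and 1 rose and 4 fell in corneal cells, with a median change of −0.39. JUP, the plakoglobin of desmosomes, had levels of 0.04, 0.07 and 0.09 on the corneal arrays, against −0.38, −0.42 and −0.30 on the epidermal arrays, a rise of 0.43 ± 0.04 (SE, limma adjusted p = 0.00036). PPL, the periplakin that links keratin filaments to desmosomes, had levels of 3.54, 3.55 and 3.57 on the corneal arrays, against 4.06, 4.10 and 4.12 on the epidermal arrays, a change of −0.54 ± 0.03 (SE, limma adjusted p = 4.1e-05).

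Dystonin (DST), which anchors keratin at hemidesmosomes, fell as well, with a change of −0.52 ± 0.14 (SE, limma adjusted p = 0.022). It missed the threshold without epidermal replicate 2 (adjusted p = 0.068) and without epidermal replicate 3 (adjusted p = 0.071). With replicate number as a block (adjusted p = 0.057) and under normexp without spots on very bright local background (adjusted p = 0.15) it missed the threshold too. Of 3 basal adhesion genes, ITGB1, the integrin subunit of basal cells, rose by 0.14 ± 0.03 (SE, limma adjusted p = 0.0071), a direction that turned to −0.02 without scaling, and CAV1 fell by 1.47 on the log2 scale.

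Epidermal and epithelial differentiation genes numbered 6 tested, 2 higher and 3 lower in corneal cells. Among these calls, KRTDAP, CLDN4 and PRD-SPRRII each entered the fit through the arrays of 1 group alone, so the counts lean on the filter. KRTDAP, a keratinocyte differentiation protein, was measured on all 3 epidermal arrays and 0 corneal arrays. By the bound, which leaves out scatter, it was 1.34-fold lower in corneal cells (fitted change −0.68 ± 0.18, SE, limma adjusted p = 0.021). It missed the threshold when corneal replicate 2 or 3 or epidermal replicate 1 or 2 was left out, with adjusted p between 0.056 and 0.060, and under quantile normalization (adjusted p = 0.081). PRD-SPRRII, a small proline-rich protein gene by its name, had a probe measured on all 3 corneal arrays and 0 epidermal arrays. For that probe the bound put the corneal level 2.01-fold higher, scatter left out (fitted change 3.00 ± 0.17, SE, limma adjusted p = 4.2e-05). Of the 5 probes with this name, only that probe entered the fit, through the corneal arrays. With normexp as the background correction its change was −0.49, and 0.55 (adjusted p = 2.5e-05) when spots on very bright local background were also left out. CLDN1, a tight junction claudin, rose by 1.18 ± 0.07 (SE, limma adjusted p = 5.8e-05). CLDN4, another claudin, was measured on epidermal arrays alone and had a fitted change of −1.35 ± 0.42 (SE, limma adjusted p = 0.034), with no fold that could be bounded. Its call was lost when any array other than corneal replicate 1 was left out, with adjusted p between 0.072 and 0.094. CLDN4 also missed the threshold under quantile normalization (adjusted p = 0.066), with no filter (adjusted p = 0.052) and with slide column as a block (adjusted p = 0.14).

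Of the other intermediate filament genes, 4 of the 5 with a probe were well above background on all 6 arrays, and 2 of the 4 tested rose. VIM, the vimentin of mesenchymal and many cultured cells, had levels of 8.62, 8.59 and 8.60 on the corneal arrays, against 8.51, 8.72 and 8.74 on the epidermal arrays, and did not pass (change −0.05 ± 0.07, SE, limma adjusted p = 0.51). Without epidermal replicate 1 the VIM change was −0.12 and passed (adjusted p = 0.022). DES, the desmin of muscle, rose by 1.21 ± 0.09 (SE, limma adjusted p = 0.00016), with changes of −0.19 under normexp and 0.68 (adjusted p = 9.7e-05) under normexp without the spots on very bright local background. LMNA, the nuclear lamin gene, rose by 0.24 ± 0.04 (SE, limma adjusted p = 0.0048) and by 0.08 without scaling (adjusted p = 0.32), while the other of its 2 probes had a change of −0.03.

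Markers of other cell types were read beside the keratins. Of 28 mesenchymal genes listed, 17 had a named probe and 16 were well above background on all 6 arrays. All 17 were tested, and 4 rose and 9 fell in corneal cells, against 26.4% and 33.4% of all probes tested. The summed level of those 17 ranged from 10.58 to 10.60 on the corneal arrays and from 10.50 to 10.72 on the epidermal arrays. On the corneal arrays most of that sum came from VIM, TIMP1 and DCN, with means of 8.60, 8.61 and 8.14. POSTN, a matrix protein, was measured on epidermal arrays alone and by the bound was 59.9-fold lower in corneal cells. COL3A1 fell by 4.51 on the log2 scale. FN1, the fibronectin gene, rose by 0.95 ± 0.03 (SE, limma adjusted p = 7.1e-06) and COL5A2, a collagen gene, by 0.74 ± 0.04 (SE, limma adjusted p = 2.8e-05). Of 2 corneal epithelium genes with a probe, PAX6 rose and ALDH1A1 fell, and keratins 3 and 12 of that epithelium were not analysed here.

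Immune genes fell in 3 of 5 tested and endothelial genes in 2 of 3 tested, led by FCGR3A and FCGR2B, both Fc receptors, and by TIE1 and VWF. TIE1 and VWF entered the fit through epidermal arrays alone, so the endothelial count leans on the filter. The third endothelial gene tested, ENG, was measured on all 6 arrays and did not pass (change 0.19, limma adjusted p = 0.17). The TIE1 change of −1.84 did not pass with slide column as a block (−1.57, limma adjusted p = 0.055). Under normexp without the spots on very bright local background it did not pass either (−0.10, limma adjusted p = 0.26), and the VWF change was 0.05. The normexp offset of 50 draws the changes of probes this dim towards 0. The summed immune level was 0.85 to 0.91 on the corneal arrays and 1.42 to 1.50 on the epidermal arrays, and the summed endothelial level −3.07 to −2.83 on the corneal arrays and −2.75 to −2.69 on the epidermal arrays. Most of the immune sum came from CD14 (mean 0.69 corneal, 1.00 epidermal) and most of the endothelial sum from ENG (mean −3.41 corneal, −3.60 epidermal). The sums therefore do not measure cell type content. PECAM1 and CDH5, which define endothelial cells, and CD4 were well above background on 0 arrays. Other members of these lists were measured. CD3E was so on 2 corneal and 3 epidermal arrays, KDR on 2 epidermal arrays and FLT1 on 1 epidermal array. ENG, CD14 and FCER1G were so on all 6 arrays. The markers therefore do not settle whether such cells were present. The melanocyte genes TYR and KIT each had 1 of 2 probes well above background, on 1 array each (a corneal array for TYR and an epidermal array for KIT). The part of these cell types in the keratin values was not tested.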

How the data were processed

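The submitters' processing notes name Agilent Feature Extraction 10.7. The scanner values deposited by the authors are linear intensities. Their processed signal had background subtracted and was detrended, per the file headers, and dim spots carry replacement values. A table of log2 values, also deposited by the authors with processing not given in the sources used here, served as an alternative.

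Control spots and outlier spots were left out. For each probe, log2 processed signals minus the 75th percentile of their array were averaged. Probes well above background on at least 3 of 6 arrays were fitted with limma 3.58.1 (lmFit, eBayes; R 4.3.3), corneal minus epidermal with no block. A probe measured in 1 group alone could enter the fit through that group. Benjamini-Hochberg adjustment ran over all 11740 probes, with a threshold of 0.05. The fit was tested on simulated data. Where 0 arrays of a group were well above background, the change is a bound. The dim group's mean then takes, on each array, the probe's own level or the lowest level called well above background, whichever is higher. The brighter group's mean is taken as observed, so a bound leaves out scatter. Probes above that lowest level were not always called, so a bound is no strict minimum. Bounds under 1 are not printed. Precision is limited by the number of arrays.

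Same-numbered corneal and epidermal samples did not deviate together (correlations of 0.017, −0.029 and 0.038), so the numbers were not taken as pairs. Names came from the array annotation. Sheep RefSeq names (assembly ARS-UI_Ramb_v3.0) matched 19 of the 22 keratin probes. In lists, the fitted probe of highest mean stood for its gene. Members and lists were chosen with earlier results of these data known. Named genes are all keratin probes, the called list members of largest change (at most 2 a list and direction), a set of genes chosen by name (VIM, TP63, HOXC13, PAX6, JUP, PPL, DST, ITGB1, KRTDAP, LMNA) and the 5 named genes most like the keratin probe of highest mean. PECAM1, CDH5, CD4, TYR and KIT were added after their values were seen, because they mark cell types. CD3E, KDR, FLT1, ENG, CD14, FCER1G, TIMP1 and DCN were added in the same way. Alternatives covered scaling, background correction, the deposited log2 table, the filter, blocks, the eBayes prior, 1 probe per gene, and leaving out each array. Normexp used an offset of 50.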

Additional observations from a re-analysis of the deposited data

How the results depend on the processing

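Of the keratin probes, 0 were called in the fit described, while 2 were called with no scaling, 7 with no filter, 1 with probes required on all 3 arrays of a group, 2 with slide column as a block and 1 with an intensity trend in eBayes. Leaving out 1 array gave 0 to 2 calls, and the other alternatives gave 0. With replicate number as a block 1 was called, the KRT2.11 probe at 1765 (adjusted p = 0.012), but the samples share no more than a number. The calls with slide column as a block were KRT15 (adjusted p = 0.0498) and the K38 probe at 1637 (adjusted p = 0.036). KRT27 gained its call with probes required on all 3 arrays of a group (adjusted p = 0.0498) and with the trend (adjusted p = 0.035). Detection of 10 keratin probes became 20 with the positive and significant flag and 21 above the 95th percentile of negative controls, and 9 to 10 when 1 array was left out. Of all gene probes, 96.9% had the positive and significant flag and 97.7% were above that percentile on at least 1 array.

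Normexp called 426 probes in all, 196 higher and 230 lower in corneal cells, against 7025, and 7 of the listed genes, against 38. With spots of extreme local background left out, which were 8 gene spots on epidermal replicate 1, normexp called 7108 probes, 3829 higher and 3279 lower, and 32 of the listed genes. No scaling gave 1535 higher. Changes turned sign as follows, with none of the turned keratin values past the threshold. KRT15 had 0.15 with quantile normalization and with the deposited log2 table. No scaling gave −0.053 for KRT8 and −0.023 for ITGB1. Normexp gave −0.25 for KRT8, −0.19 for DES, −0.26 for PAX6, −0.49 for PRD-SPRRII and 0.20 for VIM. Without spots of extreme local background, normexp gave 0.10 for KRT15, 0.013 for KRT27, 0.0058 for the K38 probe at 1528, 0.13 for the K38 probe at 1637, 0.019 for the KRT2.11 probe at 1765, 0.077 for CLDN4, 0.022 for KRTDAP, 0.10 for UHSKP and 0.047 for VWF. The normexp offset of 50 draws the changes of dim probes towards 0, so these values do not show that differences were absent. The signal of dim keratins over background limits what these arrays can show.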

Other observations

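In linear units before scaling, KRT8 had processed intensities of 247, 296 and 276 on the corneal arrays and of 297, 306 and 248 on the epidermal arrays, with software errors between 24.8 and 30.7. KRT5 had 8.91, 3.34 and 3.19 on the corneal arrays and 18.6, 11.1 and 13.9 on the epidermal arrays, with software errors of 2.68, 3.30 and 3.13 on the corneal arrays and 2.80, 2.77 and 2.35 on the epidermal arrays. The error of KRT5 was close to the value on corneal replicates 2 and 3, where the software had put in replacement values.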
